A study of Mus musculus and Macaca nemestrina with 20 samples.

Results

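The Notch pathway was followed through 10 of its genes in bulk RNA-seq of dorsal root ganglia, the clusters of sensory nerve cell bodies beside the spinal cord. The genes were taken by name, but were chosen with earlier results of these data known. They were 4 receptors (Notch1, Notch2, Notch3 and Notch4), 4 ligands (Dll1, Dll4, Jag1 and Jag2) and 2 target genes (Hes1 and Hey1). All 10 symbols were present among the 29766 genes of the mouse tables, and all 10, in capitals, among the 35194 genes of the monkey tables.

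The study has 20 libraries. In mice, 7 ADAM17 knockout libraries (4 in batch 1 and 3 in batch 2) were set against 7 libraries labelled flox (3 in batch 1 and 4 in batch 2). In pig-tailed monkeys (Macaca nemestrina), 3 libraries labelled as ganglia from skin treated with SADBE were set against 3 labelled vehicle, from control skin. SADBE (squaric acid dibutyl ester) is a contact sensitiser. Whether treated and control skin belonged to the same animals is not stated. The labels give no Cre driver, deleted exons, age, sex or number of animals per library, and every p-value here therefore reflects library-to-library spread, which may be technical.

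Notch receptors are single-pass proteins that are activated when a ligand of the Delta or Jagged family on a neighbouring cell pulls on them. The receptor is then cut outside the membrane, mainly by ADAM10, with ADAM17 able to cut it independently of ligand, and next inside the membrane by gamma-secretase. The freed intracellular domain joins the DNA-binding protein Rbpj and turns on genes of the Hes and Hey families, which encode transcriptional repressors. In developing sensory ganglia the pathway is known for favouring glial over neuronal fate, and in vessels for mural and arterial cell identity.

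The coding end of Hes1, the gene the mouse comparison turns on, is shown because it carries the short tag through which this repressor recruits Groucho/TLE co-repressors. These are the last 60 coding bases of the mouse gene in the GENCODE M21 transcripts (GRCm38), 5′ to 3′, with the codons of the carboxy-terminal tetrapeptide in capitals.
Hes1: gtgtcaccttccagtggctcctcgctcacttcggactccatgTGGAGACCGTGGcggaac
In Hes1, at chr16:30064384-30067796 on the plus strand, the capitals are codons 277 to 280 of 282.

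The libraries differed in depth and composition. In batch 1, totals of estimated counts, in units of 1000000, were 12.1 to 14.7 for knockout and 46.9 to 52.1 for flox. In batch 2 they were 27.9 to 30.8 for knockout and 30.9 to 35.99 for flox. Monkey totals in the same unit were 9.02 to 22.4 with SADBE and 13.7 to 27.1 with vehicle. Adam17 itself stood at 4.70 to 9.18 TPM (transcripts scaled for length and library) in knockout ganglia and at 5.75 to 9.51 TPM in flox ganglia (log2 fold change 0.029 ± 0.18 SE, edgeR adjusted p = 0.930), so its level does not check the genotype labels, and the files do not show which exons were deleted. Summed TPM of the sensory neuron markers reached 3530 to 7158 in knockout mice, 2027 to 6211 in flox mice, and 3660 to 6195 with SADBE and 1549 to 6865 with vehicle, and none of the markers present in the tables was at 0 in every library. Y-linked genes summed to 59.9 and 66.8 TPM in knockout libraries 6 and 7 and to 1.11 to 3.31 TPM in the other mouse libraries. High Y-linked TPM was confined to knockout libraries of batch 2, so the genotypes were not balanced for it.

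In ADAM17 knockout ganglia Hes1 fell to 0.473 of its flox level, and it was the only one of the 10 genes to pass the test. The other 9 fitted below flox as well, but none of them passed. The test was edgeR's quasi-likelihood test on the estimated counts with batch in the model and Benjamini-Hochberg adjustment at 0.05 over all 15654 genes tested, which called 15.5% of the genes tested, and 7.51% of the genes tested as lower. Thus 1 of 10 genes called was near the background share. All 10 fold changes lay below 0, against 50.8% of all genes, but Dll4 and Jag1 were near 0, and in each batch alone 8 of 10 lay below 0, with 6 of 10 below 0 in both. In the fit of both batches 4 had an unadjusted p below 0.05, against 30.9% of all genes. The median log2 fold change was -0.45 over the 10 genes and -0.0078 over all genes tested. Values per library below are normalised counts per 1000000 (CPM, scaled by the trimmed mean of M-values), and no gene had every knockout library below every flox library in both batches, an order found for 2.25% of genes.

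**Figure D1:**
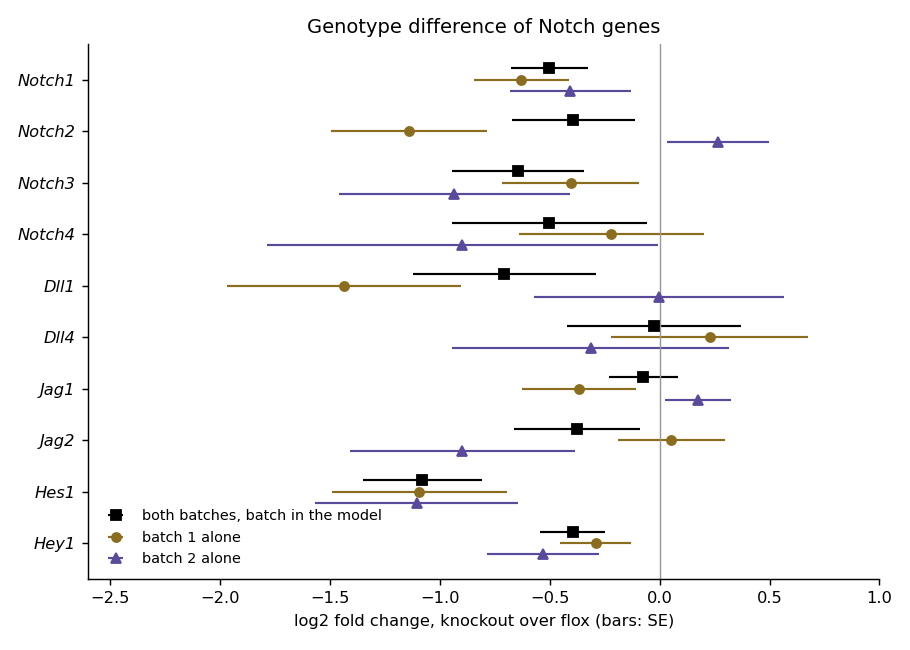
Log2 fold change of each Notch gene, ADAM17 knockout minus flox, with the standard error from edgeR, for both batches together (squares), batch 1 alone (circles) and batch 2 alone (triangles). With both batches Hes1 lies lowest at -1.08, and the values of Notch2 and Dll1 differ most between batches.

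Among the receptors, Notch1, at chr2:26457903-26516663 (GRCm38, minus strand), the receptor best known from T cells and neural progenitors, had 16.1, 11.1, 11.6 and 14.9 CPM in the knockout libraries of batch 1, against 15.6, 23.8 and 21.4 CPM in flox. In batch 2 it had 7.12, 6.93 and 13.8 CPM in knockout, against 14.7, 11.4, 11.3 and 11.9 CPM in flox. The groups overlapped in both batches, through knockout libraries 1 and 7. The log2 fold change was -0.50 ± 0.18 (edgeR adjusted p = 0.0644), with -0.63 ± 0.22 in batch 1 and -0.41 ± 0.28 in batch 2. Notch1 was near the threshold and passed it in 6 of 27 alternatives: DESeq2 (adjusted p = 0.03997), voom (0.0439), no TMM (0.0222), without knockout library 7 (0.0104), without knockout libraries 6 and 7 (0.0255) and without flox library 1 (0.0471). The fit without knockout libraries 6 and 7 kept only library 5 as knockout in batch 2. With per-library offsets for transcript GC content the log2 fold change was -0.35 ± 0.17 (edgeR adjusted p = 0.188). Leaving out 1 library each gave edgeR adjusted p from 0.0104 to 0.142.

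Notch2, at chr3:98013527-98150361 (GRCm38, plus strand), a receptor of many stromal and immune cells, had 7.48, 4.94, 6.34 and 11.6 CPM in the knockout libraries of batch 1, against 10.5, 23.8 and 14.5 CPM in flox. In batch 2 it had 306, 684 and 516 CPM in knockout, against 447.6, 341.5, 471.5 and 413.4 CPM in flox. The knockout libraries were mostly the lower ones in batch 1 and held both the lowest and the highest values in batch 2, where the 2 highest were libraries 6 and 7, which also stood apart in Y-linked TPM. The log2 fold change was -0.39 ± 0.28 (edgeR adjusted p = 0.364), with -1.14 ± 0.35 in batch 1 and 0.27 ± 0.23 in batch 2. Without knockout libraries 6 and 7 it was -0.87 ± 0.24 and passed the test (edgeR adjusted p = 0.0310). That fit kept only library 5 as knockout in batch 2, the one with the lowest Notch2 there (306 CPM). Without any 1 library the edgeR adjusted p ran from 0.135 to 0.696. The value then ran from -0.60 without knockout library 6 to -0.16 without flox library 2. The difference in Notch2 fold change between batches had an unadjusted p of 0.00665 and an adjusted p of 0.142 in edgeR's batch by genotype interaction test. That test called 1.03% of genes and none of the 10.

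Notch3, the receptor of mural cells, ranged from 0.977 to 6.19 CPM in knockout ganglia, against 1.58 to 9.24 CPM in flox ganglia, with a log2 fold change of -0.64 ± 0.30 (edgeR adjusted p = 0.155). Notch4, found mostly in endothelium, ranged from 0.0405 to 5.64 CPM in knockout ganglia, against 0.580 to 4.23 CPM in flox ganglia, with a log2 fold change of -0.50 ± 0.44 (edgeR adjusted p = 0.473). Both were low, and their groups overlapped. Notch4 ran from -0.903 without knockout library 6 to -0.26 without knockout library 5.

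Of the ligands, Dll1, a Delta ligand of differentiating neurons, had 1.88, 0.962, 1.45 and 1.91 CPM in the knockout libraries of batch 1, against 1.37, 4.23 and 6.64 CPM in flox. In batch 2 it had 1.46, 0.609 and 2.29 CPM in knockout, against 1.57, 1.44, 0.838 and 1.99 CPM in flox. Flox libraries 2 and 3 stood above all others, and the remaining libraries overlapped. The log2 fold change was -0.71 ± 0.42 (edgeR adjusted p = 0.265), with -1.44 ± 0.53 in batch 1 and -0.0035 ± 0.57 in batch 2. It was -0.41 without flox library 3 and -1.005 without knockout library 7.

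Dll4, the Delta ligand of sprouting vessels, ranged from 1.09 to 2.86 CPM in knockout and from 0.661 to 3.83 CPM in flox libraries, and its log2 fold change was -0.026 ± 0.40 (edgeR adjusted p = 0.974). Jag1, at chr2:137081456-137116644 (minus strand), a Jagged ligand of smooth muscle and glial precursors, had a log2 fold change of -0.074 ± 0.16 (edgeR adjusted p = 0.785), with 12.5 to 19.6 CPM in knockout and 12.7 to 23.6 CPM in flox in batch 1, and 265 to 327 CPM in knockout and 224 to 325 CPM in flox in batch 2. Jag2, the second Jagged ligand, had 19.9, 18.6, 18.8 and 11.99 CPM in the knockout libraries of batch 1, against 21.0, 11.6 and 16.5 CPM in flox, and 1.62, 1.41 and 1.40 CPM in knockout of batch 2, against 4.03, 2.47, 0.9996 and 3.58 CPM in flox. Its groups overlapped in each batch, and the log2 fold change was -0.37 ± 0.29 (edgeR adjusted p = 0.4004).

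Hes1, the repressor that holds progenitors undifferentiated, had 13.7, 12.6, 17.2 and 32.3 CPM in the knockout libraries of batch 1, against 21.3, 55.7 and 41.0 CPM in flox. In batch 2 it had 0.930, 0.914 and 2.08 CPM in knockout, against 2.92, 2.24, 2.48 and 3.64 CPM in flox. Only knockout library 4 reached into the flox range in batch 1, and the groups did not overlap in batch 2. The log2 fold change was -1.08 ± 0.27 (edgeR adjusted p = 0.0143). It was -1.09 ± 0.40 in batch 1 (edgeR adjusted p = 0.215) and -1.105 ± 0.46 in batch 2 (edgeR adjusted p = 0.143). These values were close, but each had a wide SE. In batch 2 Hes1 rested on 23 to 49 estimated counts in knockout and 76 to 117 in flox. The call was not made in either batch alone, where edgeR called 1.8% and 13.2% of genes.

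Hey1, a related repressor of endothelial and mural cells, had 14.01, 14.1, 16.6 and 13.1 CPM in the knockout libraries of batch 1, against 18.3, 18.1 and 15.6 CPM in flox. In batch 2 it had 6.96, 8.03 and 6.41 CPM in knockout, against 11.4, 7.30, 9.48 and 13.2 CPM in flox. A single knockout library overlapped the flox range in each batch. The log2 fold change was -0.40 ± 0.15 (edgeR adjusted p = 0.0809), with -0.29 ± 0.16 in batch 1 and -0.53 ± 0.25 in batch 2.

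Markers of other cells moved between the same groups. Of the fibroblast markers 9 of 10 were lower in knockout, with summed TPM of 862 to 1768 in knockout and 1770 to 2697 in flox in batch 1, and 1079 to 2086 in knockout and 2932 to 4020 in flox in batch 2. Of the myelinating Schwann cell markers 7 of 10 were called lower. The list summed to 2064 to 2747 TPM in knockout and 3012 to 3378 TPM in flox in batch 1. In batch 2 it summed to 2675 to 3319 TPM in knockout and 4923 to 7319 TPM in flox. Of the mural cell markers 3 of 10 were called lower, and the median log2 fold change of the 10 was -0.67. The list summed to 88.3 to 112 TPM in knockout and 144 to 190 TPM in flox in batch 1. In batch 2 it summed to 184 to 194 TPM in knockout and 199 to 280 TPM in flox. These sums did not overlap between genotypes in either batch. TPM columns summed, in units of 1000, to 787 to 834 for knockout and 601 to 797 for flox in batch 1, and to 976 to 979 for knockout and 954 to 979 for flox in batch 2, so TPM was not on 1 scale. With every library rescaled to the same TPM total, chosen after seeing the data, the Schwann and mural sums still did not overlap. The fibroblast sums then did in batch 1, at 1081 to 2246 in knockout and 2222 to 4308 in flox. The macrophage sums, which overlapped before, did not after rescaling in batch 1, at 159 to 231 in knockout and 233 to 281 in flox. In batch 2 they still overlapped. Of the neutrophil markers 8 of 10 were called higher. The list summed to 4744 to 16261 TPM in knockout and 533 to 1744 TPM in flox in batch 1. In batch 2 it summed to 1368 to 2471 TPM in knockout and 130 to 269 TPM in flox, again without overlap. Of the sensory neuron markers 4 of 10 were called higher. None of 9 endothelial markers tested was called, and their sum was 119 to 234 TPM in knockout, against 133 to 198 TPM in flox. Satellite glia and lymphocyte markers each had 1 called higher and 1 called lower, and no macrophage, erythroid or skeletal muscle marker was called. The satellite glia sum did not overlap in batch 2, at 6364 to 7229 TPM in knockout and 4677 to 5339 TPM in flox, and did in batch 1. Over both batches the median log2 fold change of these 10 markers was -0.12, so a rise was not shared by most of them. Knockout library 4, the one that reached the flox range for Hes1 in batch 1, had 86235 TPM of erythroid and 2037 TPM of skeletal muscle markers, against 5392 to 9272 and 14.1 to 118 TPM in the other knockout libraries of batch 1. The flox libraries of batch 1 had 9065 to 25973 TPM of erythroid and 249 to 948 TPM of skeletal muscle markers. Without knockout library 4 Hes1 was -1.28 (edgeR adjusted p = 0.00300, the lowest of 0.00300 to 0.0472 without any 1 library). The part of these cells in the result for Hes1 was not tested, and in bulk ganglia fewer cells of a type and less RNA per cell cannot be told apart.

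The fold changes of all genes also varied with base composition: across 14648 genes, which are not independent replicates, knockout minus flox fell with the GC content of the transcript (Spearman rho -0.293). The Notch genes run from 48.8% GC in Jag1 to 61.9% in Jag2. Genes of the same GC content as Hes1 had a median log2 fold change of -0.024, a difference of -1.06 for Hes1. With per-library GC offsets, chosen after seeing the data, Hes1 was at -1.05 ± 0.27 (edgeR adjusted p = 0.0181), 9 of 10 genes stayed below 0, and Dll4 turned to 0.091.

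The level of several of these genes differed far more between batches than between genotypes. Within flox libraries, Notch2 had 447.6, 341.5, 471.5 and 413.4 CPM in batch 2, against 10.5, 23.8 and 14.5 CPM in batch 1, a log2 difference of 4.66 ± 0.29 that lay at the 99.8th percentile of absolute differences. Jag1 had 281, 251, 325 and 224 CPM in batch 2, against 12.7, 23.6 and 18.2 CPM in batch 1, a log2 difference of 3.88 ± 0.24. Hes1 ran the other way, with the CPM given above and a log2 difference of -3.82 ± 0.32. Knockout libraries showed the same directions, with log2 differences of 6.05 for Notch2, 4.40 for Jag1 and -3.86 for Hes1.

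By a limit of 8-fold, chosen after these values were seen, 3 of 10 Notch genes were apart between the flox batches, against 1.49% of genes. Among knockout libraries Jag2 (-3.54) passed that limit too, making 4 of 8 tested, against 2.28% of genes. The test between the flox batches called 9 of 10, all but Dll4, against 47.3% of genes. Notch4 (-2.72 ± 0.34) and Jag2 (-2.58 ± 0.41) were also lower in batch 2, and Dll1 (-1.502 ± 0.51), Notch3 (-1.31 ± 0.42), Hey1 (-0.76 ± 0.23) and Notch1 (-0.74 ± 0.20) less so. What the batches differ in is not stated in the labels, and the cause of these differences was not tested. The mitochondrial share of estimated counts moved with batch: in batch 2 it was 0.734 to 1.03% for knockout and 1.40 to 1.76% for flox, and in batch 1 it was 8.21 to 8.70% for knockout and 8.22 to 10.9% for flox.

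**Figure D2:**
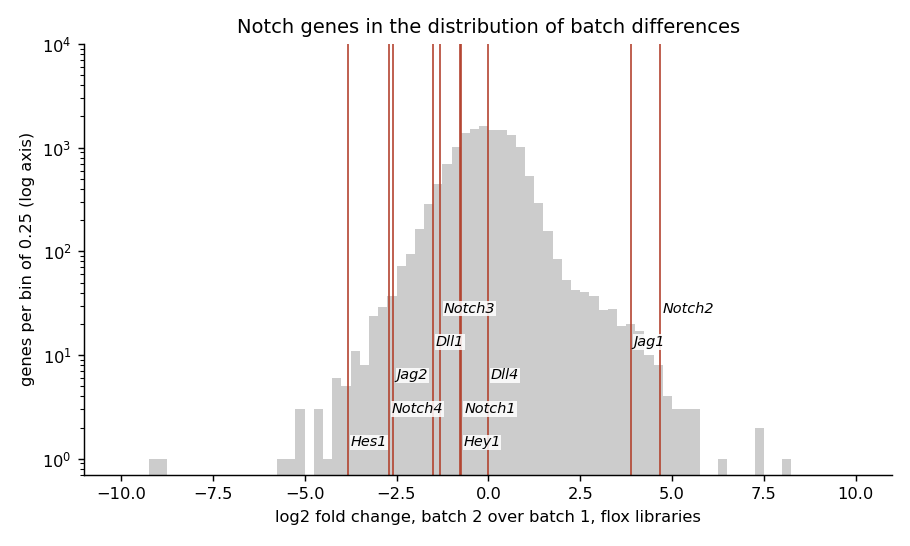
Histogram of the log2 fold change of all genes tested between flox libraries, batch 2 over batch 1, with the number of genes per bin on a log axis and a line for each Notch gene. Notch2 (4.66) and Jag1 (3.88) lie in the upper tail, Hes1 (-3.82) in the lower tail and Dll4 at the centre.

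**Figure D3:**
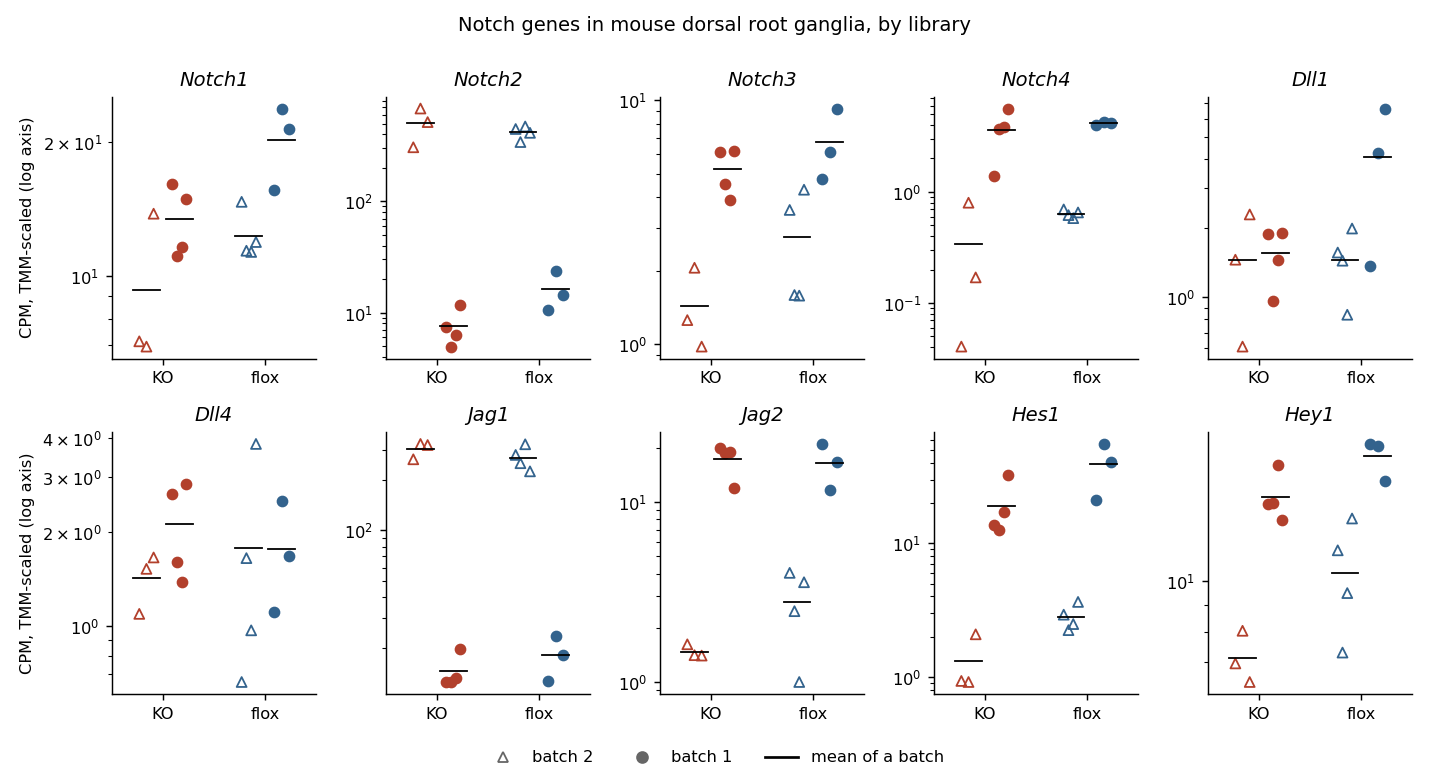
Normalised CPM of the 10 Notch genes in each of the 14 mouse libraries on a log axis, knockout left of flox, with batch 2 as triangles, batch 1 as circles and a bar at the mean of each batch. The symbols separate fully by batch for Notch2, Notch4, Jag1, Jag2 and Hes1, while the genotypes overlap for most genes.

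Levels between genes were compared per transcript length, as TPM. In flox libraries of batch 2 the order was Jag1 (60.2 ± 8.64 TPM, SD, n = 4), Notch2 (49.0 ± 5.06), Hey1, Hes1 (2.75 ± 0.510), Notch1, Dll1, Jag2, Dll4, Notch3 and Notch4. In flox libraries of batch 1 it was Hes1 (29.6 ± 9.10 TPM, SD, n = 3), Hey1, Jag2, Jag1 (3.28 ± 0.503), Notch1, Notch2 (1.496 ± 0.375), Dll1, Notch4, Notch3 and Dll4. Over all 7 flox libraries the means ran from 35.8 TPM for Jag1 to 0.599 TPM for Dll4. By an exact two-sided sign-flip permutation test on log2(TPM + 0.1) of the 9 neighbouring pairs, Jag1 over Notch2, Hey1 over Jag2 and Notch1 over Dll1 held in 7 of 7 libraries (p = 0.0156, the smallest the design allows, adjusted p = 0.0469), and the other 6 pairs did not pass (adjusted p 0.246 to 0.969). The pairs were picked by rank on the mean over both batches of these same 7 libraries, so the p-values, also of the pairs that passed, are descriptive only. Most of the pairs that did not pass had opposite signs in the batches. Notch2 minus Hes1 was 4.12 in batch 2 and -4.19 in batch 1, and Hes1 minus Hey1 was -1.01 in batch 2 and 1.89 in batch 1, so for such pairs the pooled test says nothing of the order within a batch.

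Some Notch genes varied together among libraries of the same genotype and batch: of 45 pairs, 8 had a Pearson r above 0.5 and 11 had one below 0. This description uses log2 values centred on genotype within batch over 14 libraries, which share ganglion composition and depth, and carries no test. The share among pairs of all genes was not computed, so the counts cannot be read as particular to Notch genes. Notch2 and Jag1 went together (Pearson r = 0.843, Spearman rho = 0.855), as did Notch1 with Hes1 (0.734 and 0.741) and Dll1 with Hes1 (0.709 and 0.758), while Jag1 and Jag2 were opposed (-0.698 and -0.793). The target genes Hes1 and Hey1 did not vary together (0.0029 and -0.169), and Hey1 was weakly negative with Notch1 (-0.186 and -0.301), Dll1 (-0.179 and -0.323) and Jag1 (-0.197 and -0.323). Among all 14956 genes compared, the pattern most like that of Hes1 belonged to Epb41l2 (0.930 and 0.842), Cdc42ep3 (0.925 and 0.908) and Hdac7 (0.922 and 0.899). For Notch1 the nearest were Rela (0.891 and 0.868), Ppig (0.854 and 0.877) and Il12a (0.853 and 0.793).

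Around these genes, a list of 73 other pathway components had 69 tested. Of these 6 were called higher and 10 called lower in knockout, against 7.97% and 7.51% of all genes. Its median log2 fold change was -0.042. Dlk2, Hes2, Hes3 and Helt were too low to test. The higher ones were Eogt (1.05 ± 0.22), which adds sugars to receptor repeats, the atypical ligand Cntn1 (0.55 ± 0.15), the ligand ubiquitin ligase Mib1 (0.53 ± 0.10), the receptor-degrading Fbxw7 (0.50 ± 0.12), the target Myc (0.43 ± 0.14) and the co-repressor Hdac2 (0.38 ± 0.10), with edgeR adjusted p from 0.00251 for Mib1 to 0.0426 for Myc.

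The lower ones included proteins of several steps. Pofut1 (-0.69 ± 0.18) and Rfng (-0.48 ± 0.11) modify receptor sugars, Aph1a (-0.59 ± 0.11) is a gamma-secretase subunit, Maml1 (-1.004 ± 0.27) is the co-activator of the intracellular domain and Tle2 (-1.08 ± 0.26) is one of the co-repressors that bind the tag shown above. Hes6 (-0.43 ± 0.11), Bhlhe40 (-0.68 ± 0.22) and Sox9 (-1.78 ± 0.54) were listed with the target genes, Egfl8 (-0.61 ± 0.17) with the atypical ligands and Dtx3 (-0.54 ± 0.13) with receptor turnover. Their edgeR adjusted p ran from 0.00292 for Aph1a to 0.0436 for Bhlhe40. Over 24 alternatives that kept both batches and the batch term, Eogt, Mib1 and Tle2 were called in all 24, and Myc and Sox9 in 7 each. Within both batches every knockout library lay below every flox library for Aph1a, Rfng and Hes6, an order that 2.25% of genes had, and above every one for Mib1, as for 3.25% of genes. With the per-library GC offsets 12 listed genes were called, among them Aph1a and Mib1. Rfng, Hes6, Dtx3, Egfl8, Hdac2 and Bhlhe40 were then not called.

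**Figure D4:**
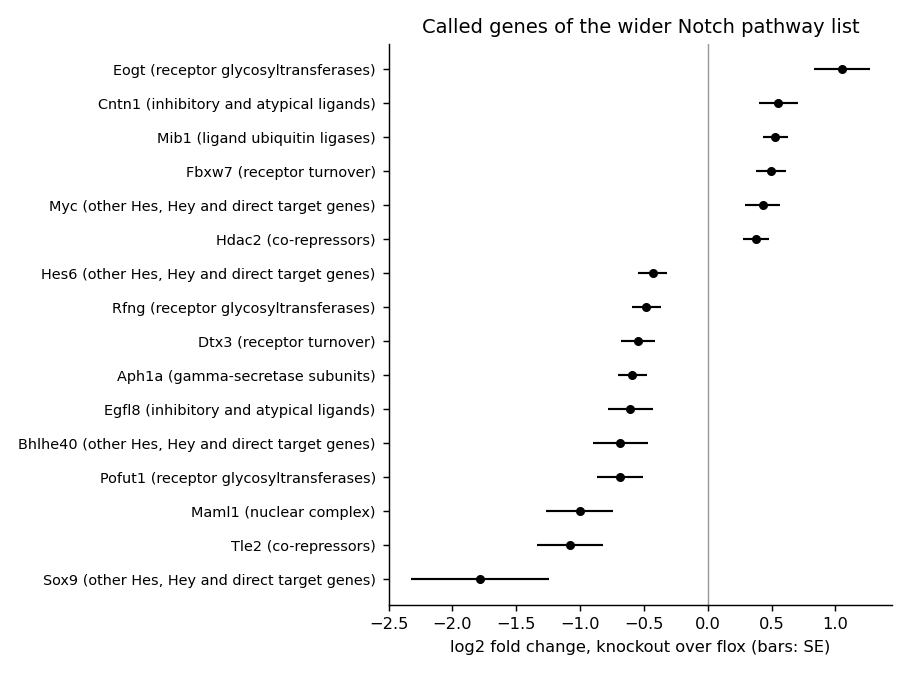
Log2 fold change, ADAM17 knockout minus flox, with standard errors, of the listed pathway genes that passed edgeR's test. Of the 16 genes, 6 lie above 0, led by Eogt at 1.05, and 10 below, with Sox9 lowest at -1.78.

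In monkeys none of the Notch genes passed the test after SADBE, and nor did any other gene: edgeR called 0% of 17988 genes, with 550 (3.06%) at an unadjusted p below 0.05, and DESeq2 called 27. Of the 10 genes 8 were tested, 6 fitted below vehicle against 50.5% of all genes, and the median was -0.37 against -0.0077. With 3 libraries against 3, an exact permutation test of a single gene cannot go below 0.10. SADBE libraries 2 and 3 were far more alike than any other pair within a monkey group (chi-square per gene 26.5, against 269 to 507), so the result was also computed with them summed.

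DLL4 was the gene whose groups did not overlap among those tested, an order that 4.56% of genes had, while 4.63% had the opposite one. It stood at 0.185, 0 and 0.115 TPM with SADBE, against 1.87, 0.819 and 0.564 TPM with vehicle, from 8, 0 and 5 estimated counts against 147, 42 and 18. The log2 fold change was -3.35 ± 1.003 (unadjusted p = 0.00923, edgeR adjusted p = 0.999). Summed TPM of the endothelial markers was 71.0 to 107 with SADBE and 43.4 to 147 with vehicle.

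JAG1 was by far the most abundant of the 10, at 833, 198 and 193 TPM with SADBE, against 258, 118 and 68.6 TPM with vehicle (log2 fold change 1.41 ± 0.74, edgeR unadjusted p = 0.0909). Its highest library was SADBE library 1, and the others overlapped. The value was 0.47 without SADBE library 1 and 2.09 without vehicle library 1. JAG2 had 12.85, 2.65 and 3.25 TPM with SADBE, against 2.41, 6.39 and 1.97 TPM with vehicle, and again SADBE library 1 was highest. DLL1 was at 0.294, 0 and 0.186 TPM with SADBE, against 0.865, 0.473 and 0.0726 TPM with vehicle, too low to test.

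Of the receptors, NOTCH3 was the most abundant, at 10.4, 3.08 and 3.72 TPM with SADBE, against 10.8, 5.66 and 2.08 TPM with vehicle (log2 fold change -0.12 ± 0.64). NOTCH2 had 1.88, 1.002 and 0.734 TPM with SADBE, against 6.08, 2.51 and 0.310 TPM with vehicle (-1.41 ± 0.87), and NOTCH4 had 3.32, 0.484 and 0.458 TPM with SADBE, against 1.34, 2.38 and 0.940 TPM with vehicle (-0.14 ± 0.78). The groups of these 3 receptors overlapped. NOTCH2 was -0.22 without vehicle library 1 and -1.96 without vehicle library 3. NOTCH1 held only 1, 1 and 2 estimated counts with SADBE, against 7, 7 and 4 with vehicle, which did not overlap but were too few to test.

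HES1 had 1.497, 0.253 and 1.07 TPM with SADBE, against 5.845, 1.95 and 0.172 TPM with vehicle, and the groups overlapped (log2 fold change -1.48 ± 1.098). It was -0.031 without vehicle library 1 and -2.04 without vehicle library 3. HEY1 had 15.4, 9.59 and 15.5 TPM with SADBE, against 18.05, 26.55 and 18.2 TPM with vehicle (-0.60 ± 0.41). On the TPM scale all SADBE libraries lay below all vehicle libraries for HEY1, whereas on the normalised CPM scale the groups overlapped. Of the other pathway genes 65 were tested, none was called, and 5 had an unadjusted p below 0.05 in edgeR: APH1B, MIB2, NEURL1B, CTBP1 and HES5.

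**Figure D5:**
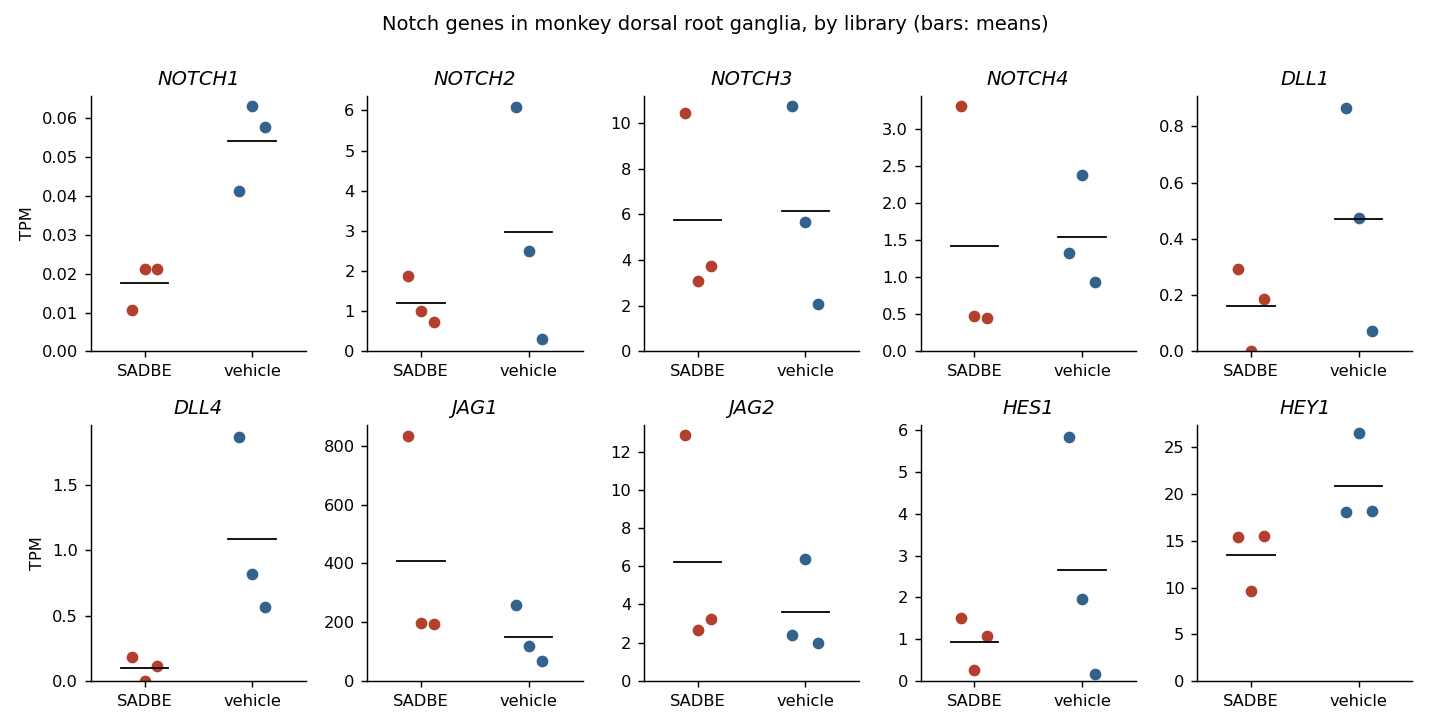
TPM of the 10 Notch genes in each monkey library, 1 panel per gene on a linear axis from 0, SADBE left of vehicle, with bars at the group means. SADBE lies below vehicle without overlap for DLL4, HEY1 and NOTCH1, and for JAG1 SADBE library 1 stands alone at 833 TPM.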

How the data were processed

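Total RNA of fresh frozen ganglia was sequenced in bulk. Per the submitters' processing notes the authors used kallisto, version not given in the sources used here, and the build GRCm38, which is also written on the monkey samples. The authors deposited estimated counts and TPM per gene for each species. A row naming no gene, holding 0.0785 to 0.186% of counts, was left out. Here the estimated counts were rounded, filtered (edgeR's filterByExpr, minimum count 10, minimum total 15), scaled by TMM and tested with robust quasi-likelihood fits in edgeR 4.0.16 (R 4.3.3), with batch as a term in mice. Alternatives were limma 3.58.1 on log2(TPM + 1) and log2(TPM + 0.1), voom, DESeq2 1.42.0, no TMM, no filter, thinning, no batch term, each batch alone, a replicate block, GC offsets and leaving out libraries. The fitting was tested on simulated data. All 10 Notch genes are named, with listed pathway genes that passed the test and the 3 genes most like Hes1 and Notch1. The genes and lists were chosen with earlier results of these data known. Coordinates and sequences are from GENCODE M21. Error values are SE unless SD is given.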

Additional observations from a re-analysis of the deposited data

Results flagged for a closer look

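In the ADAM17 knockout libraries of batch 1, Jag2 in library 4 stood at 2.88 TPM, below the other 3, which lay close together. The gap to the nearest library was 0.862 of the group's range, above Dixon's critical value of 0.829 for 4 libraries. Chance gives such a gap in about 1 in 20 groups, and 20 groups of 4 were examined.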

How the results depend on the processing

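Hes1 was called in 24 of 27 alternatives, with log2 values from -1.28 to -0.71. Its adjusted p was 0.822 without the batch term (-0.71), and leaving out 1 library each gave 0.00300 to 0.0472, the highest without flox library 2. The count of Notch genes called in mice, 1, became 2 with DESeq2, 2 with voom, 3 without TMM, 3 without knockout libraries 6 and 7, and 0 without the batch term, in batch 1 alone and in batch 2 alone; leaving out 1 library gave 1 to 2. The pathway count, 16, became 8 with limma on log2(TPM + 0.1), 2 without the batch term and 1 in batch 1 alone, and 10 to 17 without 1 library, 10 being without knockout library 5. The order of levels shared 4 places of 10 with that in batch 1 and 3 with that in batch 2, and 6 to 10 without 1 library. Signs turned for Notch2 in batch 2 (0.27), Notch4 without batch term (0.032), Jag2 without batch term (0.28) and in batch 1 (0.054), and Jag1 with voom (0.022) and in batch 2 (0.17), or -0.15 to 0.055 without 1 library. Dll4 turned to 0.048 and 0.18 with limma (pseudocounts 1 and 0.1), 0.14 with voom, 0.036 without batch term, 0.23 in batch 1 and 0.091 with GC offsets, and -0.17 to 0.30 without 1 library. The limma fits on TPM used the values without rescaling, although TPM was not on 1 scale across the mouse libraries. With SADBE libraries 2 and 3 summed NOTCH3 was 0.094 and NOTCH4 0.22; without 1 library NOTCH3 ran from -0.77 to 0.61, NOTCH4 from -1.61 to 0.24 and JAG2 from -0.15 to 1.32. The cause of these changes was not tested.

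The labels do not state that replicate numbers pair the samples. Deviations of same-numbered libraries correlated at -0.130 to 0.147 in mice, where 2 of 7 were closest to their own number. In monkeys they correlated at -0.312 to 0.233, and 1 of 3 was closest to its own number. So few correlations cannot show whether the numbers pair libraries. With the replicate block, Hes1 was -1.26 (edgeR adjusted p = 0.00510), 1 Notch gene and 13 pathway genes were called in mice and 0 in monkeys, and the interaction called 0. Mouse number 4 is in batch 1 for knockout and in batch 2 for flox. With batch also in the model, that pair adds nothing to the genotype estimate of the block fit.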
